A study of Homo sapiens with 6 samples.

Results

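The keratin genes described here were 10 genes taken from a list of simple, basal and stress keratins: KRT7, KRT8, KRT18, KRT19, KRT5, KRT15, KRT16, KRT17, KRT80 and KRT81. Each symbol matched exactly 1 of the 50868 Ensembl gene identifiers in the files. They were followed in 6 RNA-seq libraries labelled A549, a human lung adenocarcinoma line, with 3 libraries from cells transfected with an siRNA against the splicing factor gene SF3B4 and 3 libraries from cells transfected with a scramble siRNA as control. Small interfering RNAs direct the cell's own machinery to cut transcripts that match them. All cells were grown in RPMI medium with fetal bovine serum. No source used here states which siRNA sequences were used, at what dose, or when RNA was taken. The titles call the replicates biological without saying that they were separate cultures, so p-values measure the spread between these libraries only. For SF3B4 siRNA replicates 2 and 3, the genotype field reads SF3B5 and SF3B6 knockdown, whereas title and treatment read SF3B4, and the titles were followed. Control cells carry the genotype label WT.

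Keratins are the intermediate filament proteins of epithelial cells. A keratin filament is built from equal amounts of a type I and a type II keratin, which first join as a heterodimer through a long coiled-coil rod. KRT8 and KRT18 are the first keratin pair of simple, single-layered epithelia, joined in glandular and airway cells by KRT7 and KRT19. KRT5 and KRT15 are made in the basal cells of layered epithelia, and KRT16 and KRT17 are induced in skin by wounding and other stress. KRT80 is a type II keratin of many epithelia, and KRT81 is a type II keratin of hair.

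After SF3B4 siRNA, 7 of the 8 keratin genes with enough signal to test did not pass the test against control libraries, while 34.1% of all 9685 tested genes passed. KRT16 was the only listed gene past the threshold, 1.25-fold higher, and it lost that call without any 1 of 4 of the 6 libraries. The abundant simple keratins KRT19, KRT18, KRT7 and KRT8 differed between the groups by less than 10% in their fitted means. The targeted gene SF3B4 had 22.0, 17.7 and 22.3 FPKM after SF3B4 siRNA, against 88.6, 92.0 and 93.8 FPKM in control libraries. FPKM is the number of sequenced fragments per kilobase of transcript, scaled to the mapped fragments of the library.

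All 10 genes carry a conserved stretch at the end of the rod, and its DNA shows how closely these genes resemble each other. The stretches below are 30 coding bases, 5′ to 3′ on the coding strand, from the GENCODE 29 transcripts (GRCh38). They are shown as an example of this likeness. Stretches of 30 bases do not show how well longer fragments can be assigned to single keratin genes. Capitals mark bases that are rarer than the most common base at that position among the listed keratins of the same type, and bases that tie as most common stay in lower case.

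For the type I genes, the stretch lay at chr12:52952305-52952334 (plus strand) in KRT18 and on the minus strand of chromosome 17 in the others, for KRT16 at chr17:41610336-41610365 and for KRT17 at chr17:41620664-41620693.
KRT18: acctaccgccgcctgctggaAgATgGCgaG
KRT19: acctaccgcAgcctgctCgagggaCaggaA
KRT15: acTtaccgcAgcctgctCgagggcCaggat
KRT16: acctaccgccgcctgctggagggcgaggat
KRT17: acctaccgccgcctgctggagggagaggat

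For the type II genes, it lay on chromosome 12, for KRT7 at chr12:52245598-52245627 (plus strand) and for KRT8 at chr12:52898684-52898713 (minus strand).
KRT7: acctacCgCaagctgctggagggcgaggag
KRT8: acctacaggaagctgctggagggcgaggag
KRT5: acTtacCgCaagctgctggagggcgaggaA
KRT80: acctacaggaagctgGtggagggcgaggag
KRT81: acctacaggCGCctgctggagggcgaggag

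KRT16 and KRT17 shared 29 of these 30 bases, as did KRT8 and KRT80, while KRT18 and KRT80 shared 19. In a local alignment of the reference transcripts of KRT16 (1644 bases) and KRT17 (1517 bases), 995 bases aligned, with 83.2% identity over that part. Few longer stretches were identical in these pairs. KRT17 shared 16 of the 1595 stretches of 50 bases in KRT16, and KRT80 shared 16 of the 1833 in KRT8. Of all stretches of 100 bases in the KRT16 transcript, 7.18% also occurred in another keratin gene or pseudogene, and none did for KRT7, KRT18, KRT19, KRT15 or KRT80. The highest share was that of KRT81, with 30.3%, mostly shared with the hair keratin gene KRT86. The read length is not stated, and shares are higher for shorter stretches. At 50 bases they were 44.6% for KRT81, 36.9% for KRT8, 31.8% for KRT18 and 22.0% for KRT16.

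The libraries were of similar depth. The steps between low FPKM values of single-exon genes implied 17506850 to 18527885 fragments per library as the total used for scaling. Values of a few fragments carry counting error that this depth cannot resolve. Of the 10 epithelial marker genes, 0 had a mean under 1 FPKM, and the adhesion gene EPCAM was at 25.8, 28.8 and 26.9 FPKM after SF3B4 siRNA and at 24.95, 18.04 and 20.94 FPKM in control libraries. Of the 9 epithelial markers tested, 5 rose and 0 fell, against 16.0% and 18.1% of all tested genes. EPCAM, 1 of the 5 (limma adjusted p = 0.049), lost its call in 8 of 15 alternatives, without SF3B4 siRNA replicate 1, 2 or 3 or control replicate 2 or 3 among them (adjusted p up to 0.13). The rest were SPINT1, CDH1, ST14 and RAB25, with limma adjusted p of 0.000359, 0.0080, 0.0055 and 0.0054. CDH1 passed in all 15 alternatives, and SPINT1, ST14 and RAB25 were not followed there. The summed level of the 10 markers was 566 to 598 FPKM after SF3B4 siRNA and 411 to 445 FPKM in control libraries. Lung alveolar markers were largely missing, with 7 of 10 under 1 FPKM and the surfactant genes SFTPB and SFTPC listed at 0 in all 6 libraries. Among 10 genes typical of A549, 5 were under 1 FPKM, AKR1C1 and ALDH1A1 among them, and the column headers of the files name another lung cancer line, H1650. The cell line is therefore given here only as labelled. Of the fibroblast markers, 9 of 10 were under 1 FPKM, as were 7 of 8 endothelial and 7 of 10 immune markers, with PTPRC listed at 0. Their summed levels were 2.93 to 3.27, 37.5 to 38.9 and 35.4 to 38.7 FPKM after SF3B4 siRNA, against 2.29 to 2.38, 37.9 to 51.8 and 34.7 to 43.2 FPKM in control libraries, mostly from ENG for endothelium and CD68 for immune cells. Single markers within these lists differed by the same limma test. CSF1R averaged 3.93 FPKM after SF3B4 siRNA and 10.2 FPKM in control libraries, CD14 averaged 5.62 FPKM after SF3B4 siRNA and 2.59 FPKM in control libraries, and COL1A1 averaged 2.27 FPKM after SF3B4 siRNA and 1.33 FPKM in control libraries. Of the alveolar markers, SFTPD averaged 2.76 FPKM after SF3B4 siRNA and 1.34 FPKM in control libraries, and LAMP3 averaged 0.554 FPKM after SF3B4 siRNA and 2.22 FPKM in control libraries. The part of these shifts in the keratin values was not tested. In bulk RNA, fewer cells of a type and less RNA per cell cannot be told apart.

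**Figure D1:**
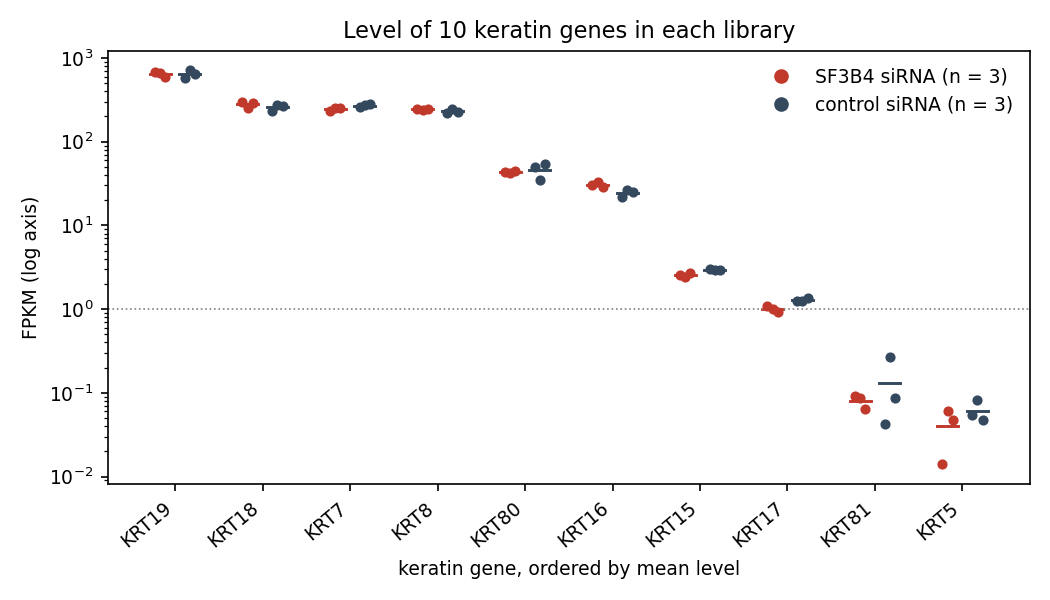
FPKM (log axis) of the 10 keratin genes, ordered by mean level, in each SF3B4 siRNA library (red) and each control library (dark). Bars mark group means, and the dotted line marks 1 FPKM. KRT19 sits highest, at 573 to 709 FPKM, and KRT5 lowest, under 0.1 FPKM in every library.

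The levels of the 10 genes spanned more than 4 orders of magnitude in FPKM, which is scaled by length and so can be compared between genes. KRT19, the shortest keratin and one without most of the usual tail domain, was highest with a mean of 643.8 FPKM over the 6 libraries. It ranked 56 among all listed genes. KRT18, KRT7 and KRT8 followed at 268.7, 258 and 238.3 FPKM, with ranges over the libraries that overlapped each other. KRT80 (44.6 FPKM) and KRT16 (27.5 FPKM) came next, and their ranges did not overlap. KRT15 averaged 2.76 FPKM and KRT17 1.15 FPKM. KRT81 and KRT5 were near 0, at 0.107 and 0.0511 FPKM. Levels between genes also depend on the transcript lengths the authors used, which are not stated.

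The 4 simple keratins made up nearly all of the keratin signal. Their share of the summed FPKM of the 10 genes was 94.9%, 94.7% and 94.7% in the SF3B4 siRNA libraries and 94.5%, 95.8% and 94.5% in the control libraries. The summed FPKM was 1494 ± 33.9 after SF3B4 siRNA and 1476 ± 104 in control libraries (SD, n = 3 each), with overlapping groups. Type II genes summed to 0.558 ± 0.0358 of the type I sum after SF3B4 siRNA and to 0.592 ± 0.0424 in control libraries (SD, n = 3 each). KRT19 alone held 43.1% ± 1.87 of the keratin sum after SF3B4 siRNA and 43.5% ± 1.67 in control libraries (SD, n = 3 each).

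Differences between the groups were tested with limma across all 9685 genes with at least 1 FPKM in at least 3 of the 6 libraries, on log2(FPKM + 0.1). Adjusted p-values are Benjamini-Hochberg values over all of those genes, and the threshold was 0.05. Fold changes are on that scale, which understates the change of low genes. Of the 10 keratin genes, 8 were tested, 1 was higher, 0 were lower and 7 did not pass. Across all tested genes, 34.1% were called, 16.0% higher and 18.1% lower. At an unadjusted p under 0.05 there were 2 keratin genes, KRT16 and KRT17, and 45.0% of all tested genes. The fitted log2 fold change was above 0 for 4 of the 8 genes and below 0 for the other 4. Its median was -0.02 over the 8 genes and -0.0035 over all tested genes, and the median of its absolute size was 0.129 and 0.251. Groups did not overlap for 4 of the 8 genes, against 49.5% of all tested genes. Of these, 1 was higher and 3 were lower, against 23.8% and 25.7% of all tested genes.

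**Figure D2:**
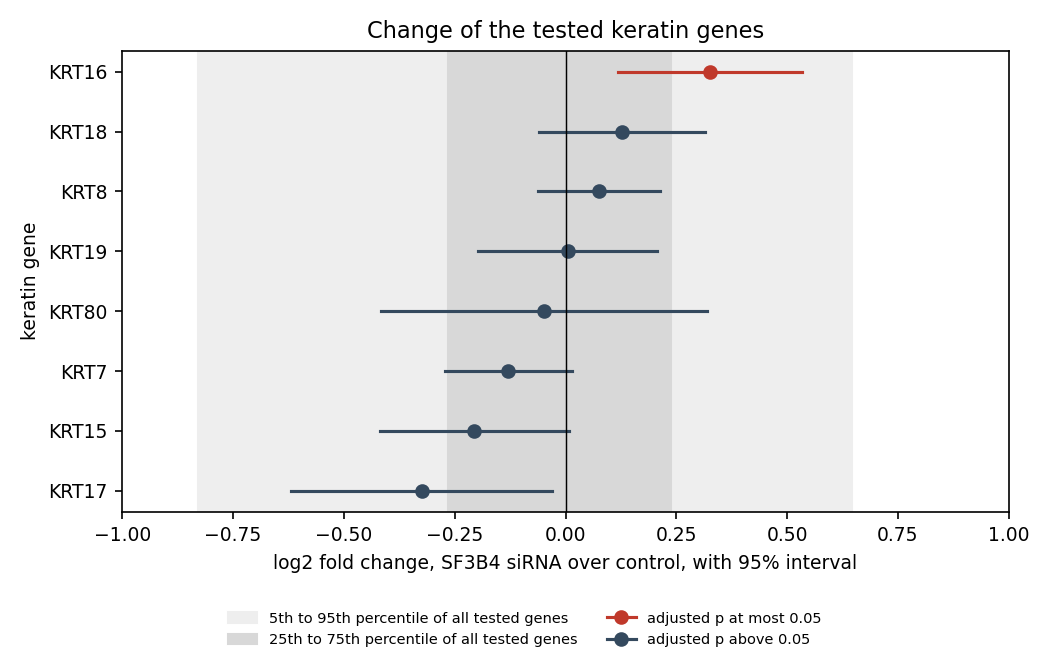
Log2 fold change (SF3B4 siRNA over control, x axis) of the 8 tested keratin genes with 95% intervals from limma. Grey bands mark the middle of the distribution over all tested genes (25th to 75th percentile, dark; 5th to 95th, light). KRT16 (red, 0.33) has an adjusted p at most 0.05, and the other 7 (dark) do not.

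KRT18, the type I partner of KRT8, was at 296.5, 256 and 290 FPKM after SF3B4 siRNA and at 235, 271 and 264 FPKM in control libraries. The groups overlapped, since SF3B4 siRNA replicate 2 lay below control replicates 2 and 3. The fold change of KRT18 was 1.09 with a 95% interval of 0.960 to 1.245 (limma adjusted p = 0.259). KRT8 was at 246, 242 and 245 FPKM after SF3B4 siRNA and at 221, 248 and 227 FPKM in control libraries. Only control replicate 2 was above the SF3B4 siRNA libraries. Its fold change was 1.05, with an interval of 0.958 to 1.16 (limma adjusted p = 0.358). The exons of KRT8 and KRT18 overlap on opposite strands over 525 bases, 7.63% of the KRT8 and 16.3% of the KRT18 exonic length. Whether counting used strand is not stated, so fragments from that stretch may have been counted for either gene.

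Within each library the FPKM ratio of KRT8 to KRT18, taken without pseudogenes, was below 1 and does not depend on scaling between libraries. It was 0.831, 0.947 and 0.845 after SF3B4 siRNA and 0.941, 0.915 and 0.861 in control libraries, with overlapping groups. The difference in the log2 ratio was -0.05 (exact two-sided permutation test, p = 0.5; the smallest p that 3 against 3 libraries allow is 0.1). Leaving out each library in turn gave differences from -0.111, without SF3B4 siRNA replicate 2, to -0.0169, without SF3B4 siRNA replicate 1. Pseudogenes summed to 39.1% of the KRT8 level and to 2.12% of the KRT18 level, so the level of the ratio depends on leaving them out. With pseudogenes added to both genes, the difference in the log2 ratio was -0.0716.

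KRT19, a type I keratin with no single fixed partner, was at 678, 654 and 600.4 FPKM after SF3B4 siRNA and at 573, 709 and 648 FPKM in control libraries. The control libraries enclosed the SF3B4 siRNA libraries on both sides. The fold change was 1.00 with an interval of 0.873 to 1.155 (limma adjusted p = 0.971), and the fitted sign of KRT19 turned in 3 of 15 alternative settings. KRT7, a type II keratin of glandular and airway epithelium, was at 233, 253 and 254 FPKM after SF3B4 siRNA and at 257, 271 and 281 FPKM in control libraries. Each SF3B4 siRNA library was below each control library, by a narrow margin. The KRT7 fold change of 0.914 (interval 0.828 to 1.01) did not pass the test (limma adjusted p = 0.147). Its exons overlap those of the antisense gene KRT7-AS over 282 bases, and KRT7-AS averaged 0.203 FPKM over the 6 libraries.

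KRT16, a type I keratin of stressed and wounded epidermis (GRCh38 chromosome 17, 41609778 to 41615899, minus strand), was at 30.1, 32.9 and 28.9 FPKM after SF3B4 siRNA and at 22.1, 26.5 and 24.8 FPKM in control libraries. Every SF3B4 siRNA library was above every control library. KRT16 had a log2 fold change of 0.33 (SE 0.09), a 1.25-fold rise with an interval of 1.09 to 1.45 (limma adjusted p = 0.0256). The size of this change was larger than that of 60.9% of all tested genes. The KRT16 call was lost without SF3B4 siRNA replicate 1 (limma adjusted p = 0.0592), without SF3B4 siRNA replicate 2 (0.0812), without control replicate 1 (0.0525), without control replicate 3 (0.0595) and without the filter on low values (0.0723), and adjusted p over its 15 alternatives was 0.020 to 0.081. The level corresponded to about 866 to 981 fragments after SF3B4 siRNA and 662 to 773 in control libraries for a transcript of 1644 bases. KRT14, which shares 59 of the 111 shared 100-base stretches of KRT16, averaged 0.311 FPKM, and the 6 KRT16 pseudogenes together averaged 0.301 FPKM.

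KRT17, which is induced with KRT16 in wounded skin, stood at 1.09, 1.01 and 0.925 FPKM after SF3B4 siRNA and at 1.24, 1.26 and 1.36 FPKM in control libraries. All SF3B4 siRNA libraries were below all control libraries. The fold change of KRT17 was 0.799 with an interval of 0.651 to 0.980, but adjusted p was 0.0852 in limma. It passed without the intensity trend and robust option of limma (adjusted p = 0.0325), 1 of 14 alternatives. With a pseudocount of 1 the log2 fold change of KRT17 was -0.187 in place of -0.324. For a transcript of 1517 bases these levels are about 26 to 29 fragments after SF3B4 siRNA and 33.9 to 37.5 in control libraries. The FPKM ratio of KRT16 to KRT17, chosen after the values were seen, was 27.6, 32.7 and 31.2 after SF3B4 siRNA and 17.9, 21.0 and 18.2 in control libraries, and it was not tested.

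KRT15, a type I keratin of basal cells, was at 2.54, 2.45 and 2.67 FPKM after SF3B4 siRNA and at 3.00, 2.93 and 2.95 FPKM in control libraries. The groups did not overlap, and the control libraries lay close together (2.96 ± 0.0351, SD, n = 3). The fold change of 0.867 (interval 0.748 to 1.005) did not pass (limma adjusted p = 0.121). KRT5, the type II partner of basal keratins, was at 0.0141, 0.0612 and 0.0466 FPKM after SF3B4 siRNA and at 0.0540, 0.0833 and 0.0475 FPKM in control libraries. A count of 3 fragments would be 0.0640 to 0.0677 FPKM for its transcript of 2531 bases, so KRT5 was at or about the level of single fragments and no fold is given. Basal type I KRT15 was thus measured beside hardly any transcript of KRT5.

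KRT80 was at 44.0, 41.8 and 44.6 FPKM after SF3B4 siRNA and at 49.2, 34.4 and 53.5 FPKM in control libraries. Its control libraries had a coefficient of variation of 21.9%, the widest of the 8 tested genes, and the SF3B4 siRNA libraries 3.33%. The fold change was 0.967 with an interval of 0.750 to 1.247 (limma adjusted p = 0.843), and the fitted sign of KRT80 turned without control replicate 1 or 3. KRT81 was at 0.0905, 0.0875 and 0.0641 FPKM after SF3B4 siRNA and at 0.0434, 0.268 and 0.0872 FPKM in control libraries, with control replicate 2 highest. For a transcript of 1929 bases these levels are about 2.29 to 3.06 fragments after SF3B4 siRNA and 1.53 to 9.17 in control libraries. KRT81 did not pass the filter, and it shares long stretches of sequence with KRT86, although their exons do not overlap in the genome.

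**Figure D3:**
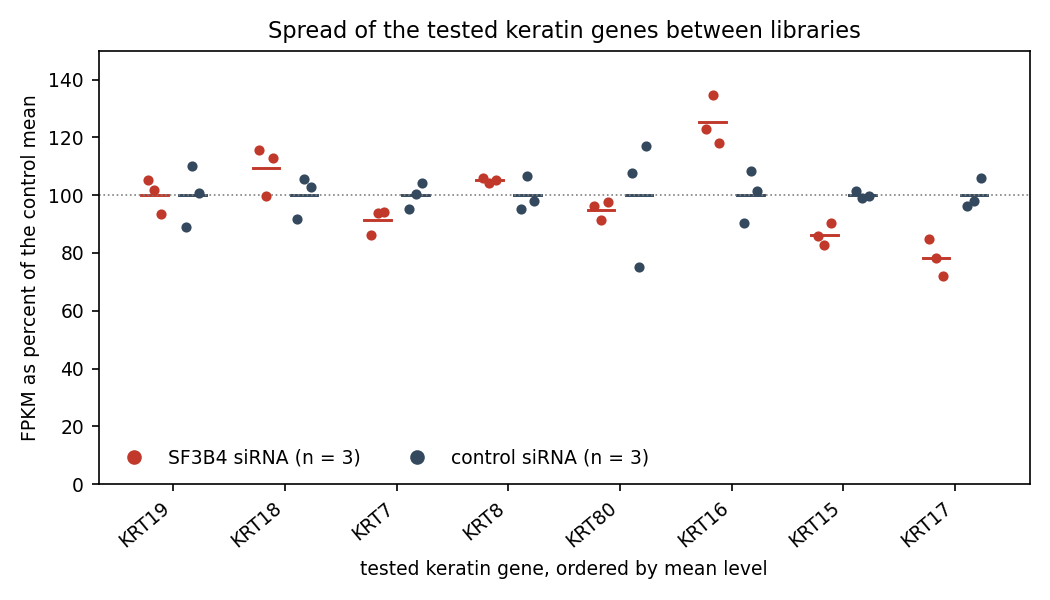
FPKM of the 8 tested keratin genes in each SF3B4 siRNA library (red) and each control library (dark), as percent of the control mean of the same gene. Bars mark group means. The groups stand apart for KRT16, KRT7, KRT15 and KRT17, and overlap for KRT19, KRT18, KRT8 and KRT80.

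KRT8 is the keratin gene most exposed to its pseudogenes. The files list 51 KRT8 pseudogenes, of which 5 averaged at least 1 FPKM, and together they reached 39.1% of the level of KRT8. KRT8P3 (GRCh38 chromosome 8, 61578220 to 61579668, a processed pseudogene with 97.1% identity to the KRT8 transcript over 1449 bases) held most of it. It was at 74.4, 72.9 and 72.7 FPKM after SF3B4 siRNA and at 66.4, 81.3 and 72.9 FPKM in control libraries, a fold change of 1.00 (limma adjusted p = 0.992). Control replicate 2 was highest and control replicate 1 lowest for KRT8P3, as they were for KRT8 among the control libraries. KRT8P10 averaged 9.54 FPKM, KRT8P45 4.74, KRT8P33 3.16 and KRT8P12 1.04 FPKM. With all pseudogenes added to KRT8, its log2 fold change was 0.06 in place of 0.08 and it did not pass (limma adjusted p = 0.538).

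KRT18 has even more pseudogenes in the files, 66, but they summed to 2.12% of its level. The highest was KRT18P28, at 1.24, 1.87 and 1.05 FPKM after SF3B4 siRNA and at 1.24, 1.27 and 1.61 FPKM in control libraries. With its pseudogenes added, KRT18 had a log2 fold change of 0.13 and did not pass (limma adjusted p = 0.252). Pseudogenes of KRT19 summed to 0.0458% of the parent's level, those of KRT16 to 1.09% and those of KRT17 to 11.5%. The highest of them were KRT19P1, KRT16P1 and KRT17P2, with means of 0.272, 0.138 and 0.0689 FPKM over the 6 libraries. KRT7, KRT5, KRT15, KRT80 and KRT81 had 0 pseudogenes named after them in the files. How fragments were divided between KRT8, KRT18 and these copies was not tested, nor was the effect of the exon overlap of KRT8 and KRT18. The levels of both genes are uncertain to that extent, with a far smaller pseudogene sum for KRT18.

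**Figure D4:**
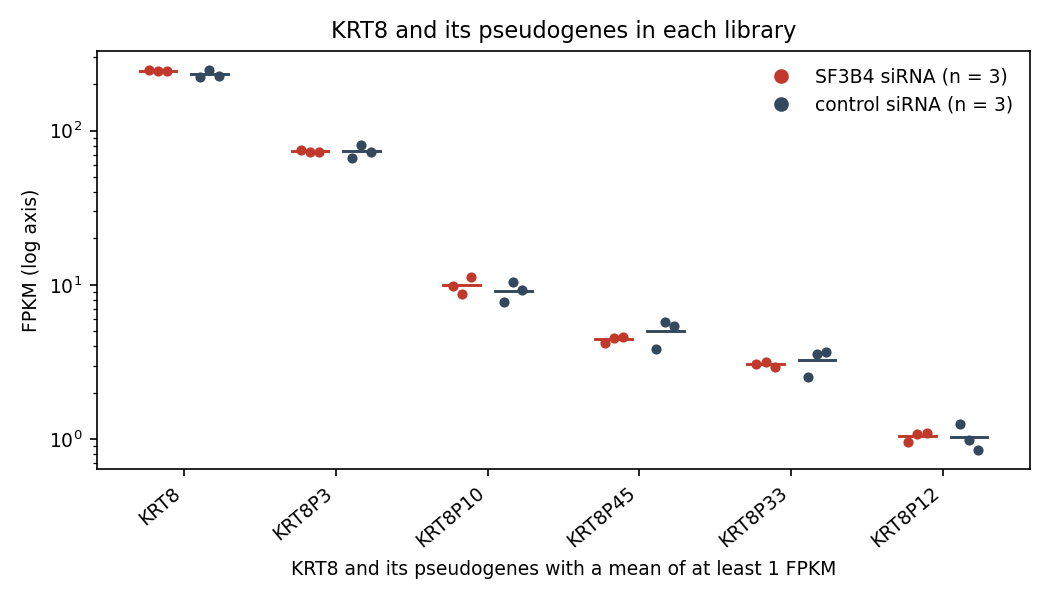
FPKM (log axis) of KRT8 and of its 5 pseudogenes with a mean of at least 1 FPKM, in each SF3B4 siRNA library (red) and each control library (dark). Bars mark group means. KRT8P3 stands at 66.4 to 81.3 FPKM, and groups overlap for every gene shown.

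Outside the 10 genes, keratin expression was nearly limited to KRT10. Of 45 other keratin genes in the files, 44 averaged under 1 FPKM and 30 were listed at 0 in all libraries. KRT10, a type I keratin of differentiating epidermis, was at 26.8, 28.4 and 27.3 FPKM after SF3B4 siRNA and at 24.1, 25.2 and 25.1 FPKM in control libraries, without overlap. Its log2 fold change was 0.15 and did not pass (limma adjusted p = 0.102). KRT6A, a type II partner of KRT16 in skin, was at 0.302, 0.362 and 0.463 FPKM after SF3B4 siRNA and at 0.318, 0.213 and 0.222 FPKM in control libraries. The related KRT6B and KRT6C averaged 0.129 and 0 FPKM after SF3B4 siRNA and 0.0802 and 0.0286 FPKM in control libraries. KRT16 was thus present with little transcript of the type II keratins it pairs with in skin.

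Members were also searched for the 7-base sequences GCCTTCA and CCTTCAA, which overlap each other and were picked out in earlier results of these data. Either was present in some annotated 3′ UTR of 2195 of 8435 tested genes (26.0%), and of 2 of the 8 tested keratin genes, KRT15 and KRT8, read on the transcript strand only. In KRT8 it was absent from the reference transcript. The matches in the reference transcripts of KRT15 (chr17:41513906-41513935, minus strand) and of the untested KRT5 (chr12:52514713-52514742, minus strand) are shown with the 7 bases in capitals.
KRT15: ctccagtccctGCCTTCAgagagctgaaaa
KRT5: gcttcaaatcaGCCTTCAggtttcccacag
KRT15 did not pass the test, and KRT5 was at the level of single fragments. A match is a description of these letters only.

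A list of keratin linker and hemidesmosome genes was drawn broadly, with LAMB3 and BICD2 among them. Of its 18 tested genes, 4 rose and 3 fell, against 16.0% and 18.1% of all tested genes. Their median log2 fold change was 0.02, against -0.0035 over all tested genes. JUP, plakoglobin of desmosomes and adherens junctions, was at 163, 163 and 149 FPKM after SF3B4 siRNA and at 98.2, 113 and 106 FPKM in control libraries, without overlap. Its log2 fold change was 0.58 (limma adjusted p = 0.00103), and it passed in all 15 alternatives. LAMB3, a chain of the laminin under hemidesmosomes, was at 44.6, 42.55 and 43.58 FPKM after SF3B4 siRNA and at 31.2, 32.5 and 30.02 FPKM in control libraries (log2 fold change 0.48, limma adjusted p = 0.00125). EVPL, the linker envoplakin, was at 6.64, 3.69 and 6.01 FPKM after SF3B4 siRNA and at 3.04, 2.60 and 2.91 FPKM in control libraries, with replicate 2 nearest to the control libraries. The EVPL rise of 0.87 on the log2 scale (limma adjusted p = 0.0176) lost its call without SF3B4 siRNA replicate 3, without control replicate 2 and without the filter, with an adjusted p of up to 0.060. BICD2, a dynein adaptor in the list, fell by 0.65 on the log2 scale (limma adjusted p = 0.0140), to 2.16, 1.88 and 2.12 FPKM, against 4.13, 2.945 and 2.91 FPKM in control libraries.

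**Figure D5:**
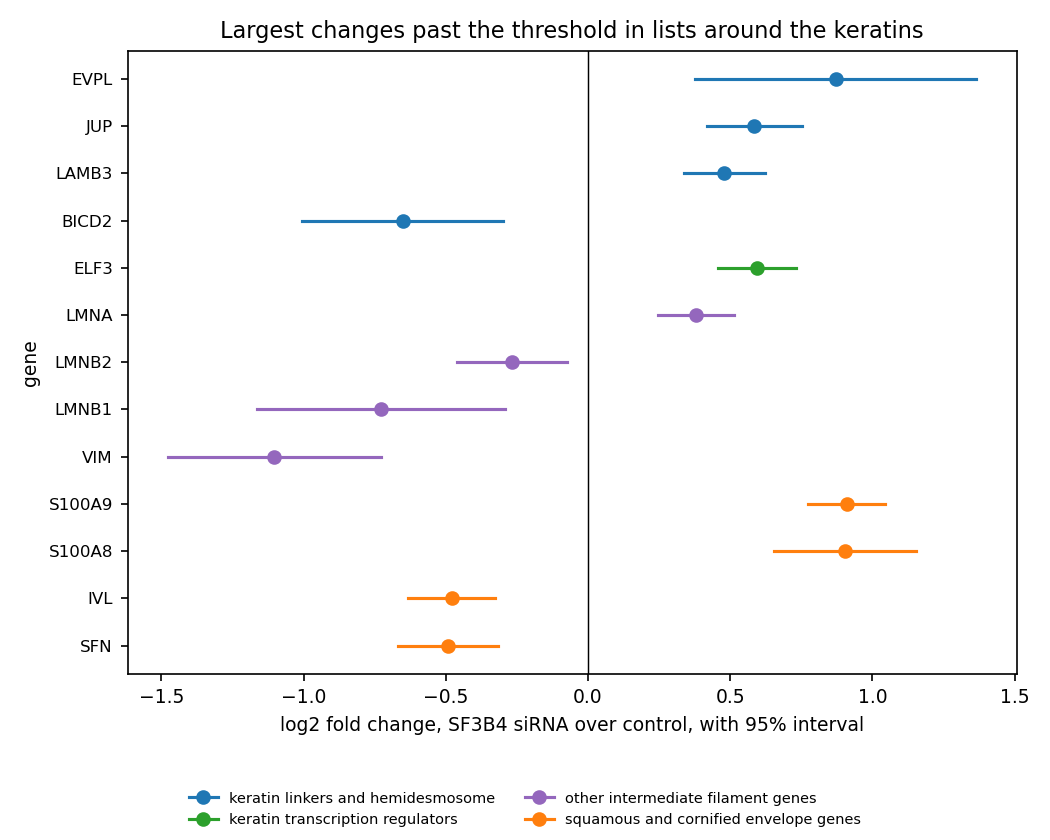
Log2 fold change (SF3B4 siRNA over control, x axis) with 95% intervals from limma of the genes with the largest changes past the threshold, up to 4 in each of 4 lists around the keratins (colours). JUP, EVPL and LAMB3 lie above 0 and BICD2 below, and LMNA lies above 0 while LMNB1, LMNB2 and VIM lie below.

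Other intermediate filament genes were tested in 6 cases, of which 1 rose and 4 fell, against 16.0% and 18.1% of all tested genes, with a median log2 fold change of -0.26. LMNA, which encodes the A-type nuclear lamins, was at 52.7, 52.1 and 54.1 FPKM after SF3B4 siRNA and at 39.5, 41.6 and 41.0 FPKM in control libraries. That is a log2 fold change of 0.38 (limma adjusted p = 0.0024), past the threshold in all 15 alternatives. The B-type lamin gene LMNB1 was at 3.22, 4.31 and 3.96 FPKM after SF3B4 siRNA and at 6.80, 4.86 and 7.78 FPKM in control libraries (log2 fold change -0.73, limma adjusted p = 0.0211). The LMNB1 call was lost in 4 alternatives: without SF3B4 siRNA replicate 1, control replicate 1 or control replicate 3, and without the filter (adjusted p up to 0.071). LMNB2 had a log2 fold change of -0.27 (limma adjusted p = 0.0404) and lost its call in 9 of 15 alternatives (adjusted p up to 0.12). These were leaving out any 1 of the 6 libraries, no filter, TPM rescaling and the plain limma fit. Vimentin (VIM), the intermediate filament protein of mesenchymal cells, was low, at 1.41, 1.65 and 1.55 FPKM after SF3B4 siRNA and at 2.69, 4.06 and 3.64 FPKM in control libraries (log2 fold change -1.10, limma adjusted p = 0.00207).

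Of 11 tested transcription factors with known roles at keratin genes, 1 rose and 0 fell, against 16.0% and 18.1% of all tested genes, with a median log2 fold change of 0.13. The epithelial factor gene ELF3 was the gene that rose, to 33.8, 33.5 and 34.4 FPKM after SF3B4 siRNA, against 22.1, 23.0 and 22.2 FPKM in control libraries, by 0.59 on the log2 scale (limma adjusted p = 0.000472). Of 18 tested genes that modify keratins or take part in their turnover, 1 rose and 3 fell, against the same 16.0% and 18.1%, with a median of 0.01. YWHAZ, a 14-3-3 protein of the family that binds phosphorylated keratins, was at 12.03, 13.85 and 14.3 FPKM after SF3B4 siRNA and at 30.1, 28.7 and 27.0 FPKM in control libraries (log2 fold change -1.09, limma adjusted p = 0.000201). SUMO3, a modifier that is attached to proteins, was at 49.0, 18.5 and 53.1 FPKM after SF3B4 siRNA and at 95.3, 89.4 and 94.55 FPKM in control libraries (limma adjusted p = 0.0473), with replicate 2 far below the other two. Its call was lost without SF3B4 siRNA replicate 1 or 3, without any 1 control library and without the filter (adjusted p up to 0.11). The call of SFPQ (log2 fold change -0.28, limma adjusted p = 0.0485) was lost in 11 of 15 alternatives (adjusted p up to 0.14). These were leaving out any 1 of the 6 libraries, no filter, TPM rescaling, quantile normalization, the plain limma fit and the replicate block.

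The genes whose profiles over the 6 libraries were most like those of the keratins came from the 4635 tested genes with a mean of at least 5 FPKM that are no keratins. Likeness was the root mean square difference between centred log2 values. The 2 smallest of 4635 differences over only 6 libraries are small by selection, and no link between the genes was tested. For KRT16 these were JUNB (0.0202), an AP-1 subunit gene, and PLXND1 (0.0287). For KRT7 they were SCAMP3 (0.0221) and FOXJ2 (0.0314), for KRT8 LTBP3 (0.0253) and DEF8 (0.0289), and for KRT18 DDX54 (0.0334) and FBXW5 (0.0337). KRT19 was closest to MED25 (0.0345) and EEFSEC (0.0356). For KRT15, BRD2 had a difference of 0.0245. KRT17 was closest to EMC9 (0.0397) and ATN1 (0.0464). KRT80 had the most distant neighbours, EID2 (0.0727) and GAS2L1 (0.0773).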

How the data were processed

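The authors deposited 1 table of FPKM values per library for 50868 Ensembl gene identifiers, a unit to which count models were not applied. Per the submitters' processing notes, the tools were HISAT2 2.0.4 and StringTie 1.3.0, and GRCh38 was the genome build. Libraries came from total RNA, per the labels' protocols. Their annotation and strand setting are not stated.

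Symbols were found for 49659 identifiers. Positions, lengths and transcripts came from GENCODE 29 (GRCh38). The implied depth came from the fragment size that best fitted low FPKM values of single-exon genes, times length, as whole multiples. With that size, 94.7% to 95.3% of the same values fell within 0.02 of whole fragments, which is no separate check. Such figures and shares cover counting error only. Groups were compared with limma 3.58.1 under R 4.3.3 (intensity trend, robust option, two-sided) on log2(FPKM + 0.1). The same fit was also run on simulated data with the same extra spread for every gene, and its outcome is not reported here.

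The members, lists and tests were chosen with earlier results of these data known. Named genes were the 10 keratins, other keratins past the filter, the highest pseudogenes, up to 4 members per list with the largest change past the threshold, and the 2 most alike genes per keratin. Some genes that this rule names are not reported here. Alternatives were other pseudocounts, filters and scalings, a plain limma fit, a replicate block, leaving out each library, and adding pseudogenes.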

Additional observations from a re-analysis of the deposited data

How the results depend on the processing

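KRT7, KRT8, KRT18, KRT19, KRT15 and KRT80 stayed above the threshold of adjusted p in every alternative that gave them a value. KRT15 and KRT17 gave none at a mean FPKM of at least 5. KRT16 had a log2 fold change of 0.33 but no call without the filter on low values, where more genes are tested, and then 0 listed keratin genes passed. KRT17 passed without intensity trend and robust option, where 2 listed genes passed. Its log2 fold change was -0.32 in both fits, and its SE was 0.0886 in place of 0.127. Leaving out each library gave 0 to 1 passing keratin genes and log2 fold changes of 0.255 to 0.385 for KRT16, -0.0753 to 0.0785 for KRT19, 0.0425 to 0.124 for KRT8, 0.0666 to 0.194 for KRT18, -0.24 to 0.077 for KRT80 and -0.0698 to 0.0759 for KRT8P3. KRT8P3 stood at -0.0136 with quantile normalization. At a mean FPKM of at least 5, where fewer genes are tested, 1027 genes were higher and 940 lower, in place of 1546 and 1752. Rescaling to TPM gave 1641 higher and 1629 lower genes, and quantile normalization 1738 and 1636. The cause of the shifts in KRT8P3 was not tested. With the replicate number as a block, 1290 genes were higher and 1537 lower and KRT16 had an adjusted p of 0.0281. Libraries with the same number did not deviate together (correlations -0.08, 0.02 and -0.12). These correlations cannot show whether libraries with the same number were handled as pairs, which the titles do not state. Depth limits KRT5 and KRT81, at an implied 0.624 to 3.74 and 1.53 to 9.17 fragments per library for their reference transcript lengths. The lengths behind the FPKM values are not stated, so these figures are approximate and are not whole counts.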

Other observations

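Genes of squamous differentiation, which often accompany KRT16 in epidermis, were mostly at low levels, since 13 of the 21 listed genes found averaged under 1 FPKM and 5 of them were at 0 in all 6 libraries. Of the 8 tested genes in that list, 2 rose and 3 fell, against 16.0% and 18.1% of all tested genes, with a median log2 fold change of 0.10. The calcium-binding protein genes S100A9 and S100A8 were higher, S100A9 at 1248, 1378 and 1233 FPKM after SF3B4 siRNA and at 679, 694 and 680 FPKM in control libraries (limma adjusted p = 9.56e-05). S100A8 was at 42.2, 54.9 and 44.5 FPKM after SF3B4 siRNA and at 25.4, 26.5 and 23.3 FPKM in control libraries (limma adjusted p = 0.000907). SFN, the 14-3-3 protein that binds KRT17 in mouse skin cells, fell to 517, 547.5 and 516 FPKM after SF3B4 siRNA, against 672.5, 813 and 742.5 FPKM in control libraries (limma adjusted p = 0.00255). IVL, involucrin of the cornified envelope, fell to 18.2, 17.1 and 17.7 FPKM after SF3B4 siRNA, against 25.6, 23.9 and 24.5 FPKM in control libraries (limma adjusted p = 0.00158). Groups did not overlap for these 4 genes, and all 4 passed in each of 15 alternatives.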
